A study of Mus musculus and Oryctolagus cuniculus and Sus scrofa with 20 samples.

Results

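The 7 microRNAs described here are the 5 main products of the miR-200 family (miR-200a-3p, miR-200b-3p, miR-429-3p, miR-200c-3p and miR-141-3p) together with miR-203-3p and miR-205-5p. They were chosen by name, as miRNAs best known from epithelial tissue, and make up 7 of the 897 mature miRNA entries that had at least 1 read in the 20 small RNA libraries of the series. All 7 names were matched in the RefSeq table of mature mouse miRNAs, and all 7 had reads in mouse.

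A miRNA is a short RNA that guides Argonaute proteins to messenger RNAs, chosen mainly by pairing to the seed, bases 2 to 8 of the miRNA. The miR-200 family represses the transcription factors ZEB1 and ZEB2, which switch off E-cadherin, and the family is therefore known as a guard of the epithelial state. miR-203 restrains p63 and promotes differentiation of the epidermis, and miR-205 is a marker of stratified and glandular epithelia. In the reproductive tract, family members are known from the epididymis and other lining epithelia as well as from germ cells.

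The mature sequences, from the RefSeq table of build GRCm38.p6, are shown because the seed divides the family into groups that do not follow its genomic clusters. Capitals mark the seed.
miR-200b-3p: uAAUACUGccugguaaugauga
miR-429-3p: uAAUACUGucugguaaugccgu
miR-200c-3p: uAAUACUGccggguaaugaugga
miR-200a-3p: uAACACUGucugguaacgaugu
miR-141-3p: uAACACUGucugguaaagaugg
miR-203-3p: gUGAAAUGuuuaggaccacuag
miR-205-5p: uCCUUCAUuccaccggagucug
miR-200b, miR-429 and miR-200c share the seed AAUACUG, whereas miR-200a and miR-141 share AACACUG. Counted from 1 at the 5′ end, miR-200a and miR-141 differ by C17A and U22G, with the miR-200a base first. miR-200b and miR-200c differ by U11G and A22G, and miR-200b and miR-429 by C9U, A19C, U20C and A22U. Each of these pairs differs at 1 position within the first 18 bases, which were used to assign reads. At those positions, reads with either of the other 2 bases were 0.0151% of the reads of miR-200a and miR-141, 0.106% of those of miR-200b and miR-200c and 0.0853% of those of miR-200b and miR-429. These values pool the libraries, and the highest in 1 library was 1.22% (7 reads), for miR-200b and miR-200c in preleptotene cells. Such base errors were thus rare, but errors to the base of the relative itself cannot be counted in this way.

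The miR-200 genes lie in clusters, each thought to be transcribed as a single precursor. In GRCm38, Mir200b, Mir200a and Mir429 lie on the minus strand at chr4:156053905-156055750, a stretch of 1846 bases within an intron of Ttll10 and within the processed transcript Gm13648, where Mir429 overlaps an exon. Mir200c and Mir141 lie on the minus strand at chr6:124717914-124718390, 477 bases within an intron of the antisense transcript Gm15884, between Phb2 and Ptpn6. Mir141 also overlaps an exon of Gm29008. Mir203 is intergenic, at chr12:112130880-112130955 on the plus strand between Aspg and Kif26a. Mir205 lies at chr1:193507463-193507530 on the minus strand and overlaps an exon of the lincRNA 4631405K08Rik. Hairpin positions in RefSeq and GENCODE vM21 were the same.

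The mouse stage series held 1 library each of cultured spermatogonial stem cells (SSCs), preleptotene and leptotene spermatocytes (mice of day 9), zygotene spermatocytes (day 13), pachytene spermatocytes and round spermatids (day 25) and mature sperm, all wild-type C57BL/6 per the labels. A further control SSC culture and 2 lines with miR-741 knocked out, 1 by TALEN and 1 by CRISPR nucleases, were C57BL/6 x DBA2 F1 cells from day 15 that carried an actin-EGFP transgene and grew on mouse embryonic fibroblast feeders. Each knockout line was grown from a picked colony and is 1 clone. Whole testis was sampled in rabbits at day 10, 30, 60, 70, 80, 90, 110 and 180 and in adult pig and rat, with an exogenous spike-in added to the rabbit RNA, and no label says how many animals a library holds. Every group was thus 1 library with no replicate, so differences between mouse groups compare libraries, and only the rabbit ages allowed a test.

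miRNA reads ranged from 196752 in the CRISPR line to 6087617 in preleptotene cells. They were 1.38% of all reads in pachytene cells and 2.09% in round spermatids, against 46.2% in preleptotene, and in rabbit they were 53.3% of reads at day 10 and 7.02% at day 180. miR-741-3p had 80096 reads in the control SSCs and 3 and 5 reads in the TALEN and CRISPR lines, which checks the knockout labels. Levels are given as reads per 1000000 miRNA reads (RPM below), with 95% exact Poisson intervals. The limit given for a count of 0 is the level of 3 reads, which is lower than the upper end of the exact interval. Without molecular identifiers, intervals and limits cover counting error only.

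The 5 miR-200 members were scarce from SSCs to round spermatids and abundant in mature sperm. The 7 miRNAs together made up 3405 RPM in SSCs, 292 in preleptotene, 312 in leptotene, 757 in zygotene and 576 in pachytene cells, 323 in round spermatids and 16641 (16507 to 16776) in mature sperm. In SSCs most of that sum was miR-203, whereas in sperm most was the miR-200 family. In bulk RNA, fewer cells of a type and less RNA per cell cannot be told apart.

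**Figure D1:**
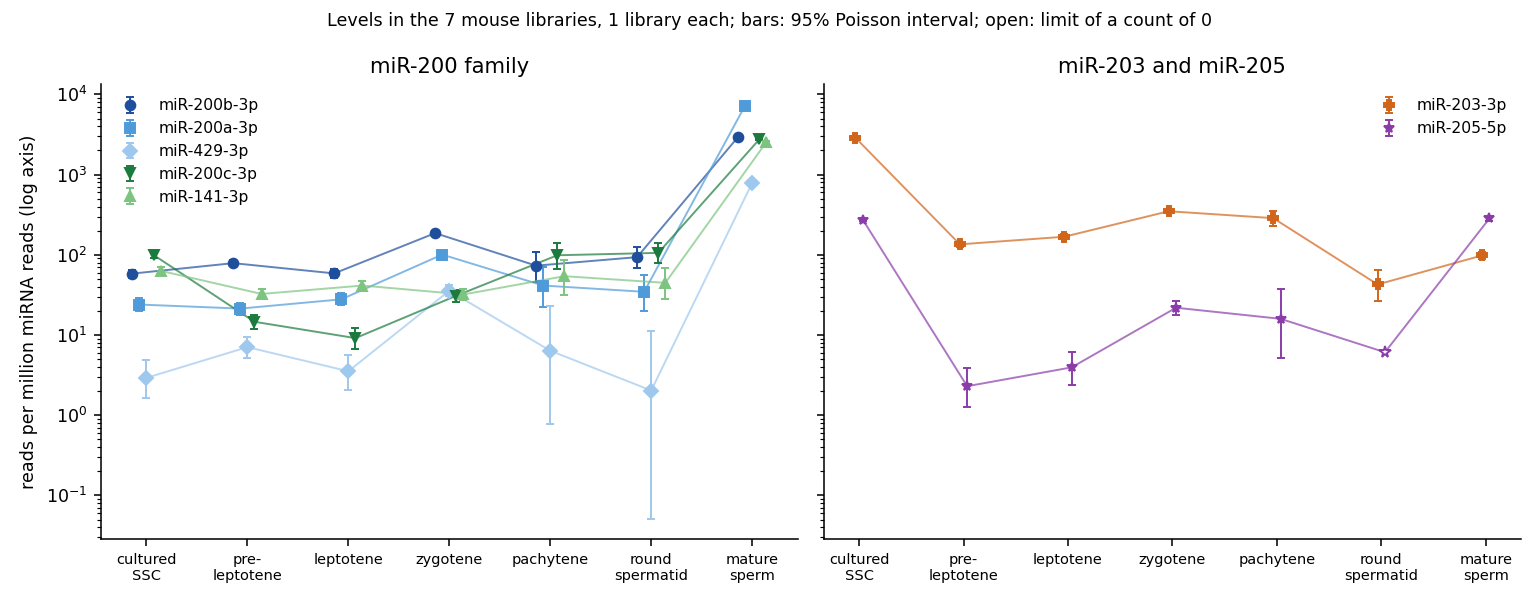
Level of each of the 7 miRNAs in the 7 mouse stage libraries, in RPM on a log axis, with bars for 95% Poisson intervals (1 library per stage) and an open symbol for the limit that a count of 0 allows. All 5 miR-200 members sit highest in mature sperm, miR-203 sits highest in SSCs at 2882, and miR-205 stands at 275 in SSCs and 284 in sperm, with its other 5 values at or below 21.9.

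miR-200b, the first hairpin of the chromosome 4 cluster, stood at 58.3 RPM in SSCs, 78.7 in preleptotene, 58.6 in leptotene, 186 in zygotene and 73.2 in pachytene cells, 93.5 in round spermatids and 2941 (2885 to 2998) in sperm. miR-200a, its neighbour with the other seed, stood at 24.0, 21.4, 27.9, 101, 41.4, 34.6 and 7254 (7165 to 7343) RPM in the same order. miR-429, the last of the cluster, had 2.92, 7.06, 3.53, 35.6, 6.37, 2.03 and 787 (758 to 817) RPM. All 3 had a smaller peak in zygotene cells and their highest level in sperm, and the order within the cluster changed: miR-200b led in every stage up to round spermatids, and miR-200a led in sperm. The pachytene and round spermatid values of miR-429 rested on 2 reads and 1 read.

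On chromosome 6, miR-200c stood at 99.6 RPM in SSCs, 14.6 in preleptotene, 9.15 in leptotene, 30.9 in zygotene and 98.7 in pachytene cells, 106 in round spermatids and 2742 (2688 to 2797) in sperm. miR-141, from the next hairpin, stood at 63.2, 32.5, 41.4, 32.0, 54.1, 44.7 and 2536 (2484 to 2589) RPM. Thus miR-200c was lowest in the early spermatocytes, while miR-141 stayed within 32.0 to 63.2 RPM through all stages before sperm. The pachytene and round spermatid values of miR-200c lay within each other's intervals.

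miR-203 differed from the miR-200 members by its high level in SSCs. It stood at 2882 (2836 to 2929) RPM in SSCs, 135 in preleptotene, 168 in leptotene, 349 in zygotene and 287 in pachytene cells, 42.7 in round spermatids and 98.2 (88.1 to 109) in sperm. miR-205 stood at 275 (261 to 290), 2.30, 3.95, 21.9 and 15.9 RPM, was not found in round spermatids, and stood at 284 (266 to 302) in sperm. The SSC and sperm levels of miR-205 lay within each other's intervals. The limit for the count of 0 in round spermatids, set at 3 reads, was 6.10 RPM.

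Between round spermatids and sperm, 6 of the 7 miRNAs were at least 4-fold higher in sperm, the size at which a difference was counted among entries that reached 100 reads on either side. Of all 204 such entries, 42.6% differed 4-fold, 22.5% being higher and 20.1% lower in sperm, and the median log2 difference was -0.19. miR-200a was 209.9-fold higher (log2 7.71, interval 7.03 to 8.49) and miR-141 was 56.7-fold higher (log2 5.83, 5.23 to 6.50). The AAUACUG members miR-200b and miR-200c were 31.5-fold and 25.9-fold higher (log2 4.98 and 4.70), with intervals of 4.56 to 5.43 and 4.31 to 5.12. miR-429 was 387-fold higher, but the 1 spermatid read left a log2 interval of 6.12 to 13.90. miR-205 was 46.5-fold higher (log2 5.54) when counted against 3 reads in place of 0, with a lower interval limit of log2 5.24. miR-203 was 2.30-fold higher (log2 1.20, 0.57 to 1.91), short of the 4-fold size. Scaled to all reads instead of miRNA reads, the median of all entries moved to 2.53 and miR-203 had a log2 difference of 3.92, which counts it as well.

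Other marker lists differed between the same libraries, and their part in the result was not tested. The list of 7 other epithelial miRNAs, among them miR-182, miR-183 and miR-31, summed to 3.39% of miRNA reads in round spermatids and 2.61% in sperm. None of them was at 0 in sperm, and none of the 7 was 4-fold different. The largest member of this list in both libraries was miR-184-3p, at 18925 and 10228 RPM. It stood at 168 RPM in SSCs, 63.4 in preleptotene, 72.3 in leptotene, 108 in zygotene and 4718 in pachytene cells. The list sum in round spermatids and sperm thus includes a miRNA that was high in late germ cells here. miR-96-5p stood at 1663 and 6100 RPM, miR-182-5p at 1400 and 3069 and miR-31-5p at 65.0 and 82.4. The other members, miR-183-5p, miR-192-5p and miR-194-5p, were lower in sperm. The blood cell list summed to 0.007% in round spermatids and 0.138% in sperm, and all 3 of its tested members were 4-fold higher in sperm, including the red cell miRNA miR-451a at 1003 RPM. Its other measured members fell short of the read minimum. Of these, miR-142a-3p stood at 44.7 RPM in round spermatids and 5.91 in sperm, and miR-142a-5p at 18.3 and 21.9. The mesenchymal list summed to 3.32% and 10.9%, with 4 of 9 tested members 4-fold higher in sperm. Most of the sum in both libraries was miR-10b-5p, at 20116 RPM in round spermatids and 98645 in sperm. miR-21a-5p, at 11022 and 4331 RPM, and miR-152-3p, at 380 and 285, were lower in sperm, and the remaining members were higher. The late germ cell list summed to 25.8% and 34.3%, most of it miR-191-5p. Of its 3 tested members, 2 were 4-fold lower in sperm: miR-449a-5p stood at 6480 RPM in round spermatids and 114 in sperm, and miR-34b-5p at 238 and 6.47. The Sertoli cell miRNA miR-202-5p was also 4-fold lower, at 270.3 and 27.6 RPM, and the muscle and endothelial list summed to 0.016% and 0.022%.

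From SSCs to preleptotene cells, miR-203, miR-205 and miR-200c were at least 4-fold lower, 3 of the 6 members tested. Of all 333 entries compared, 57.7% differed 4-fold, 54.1% being lower and 3.6% higher, and the median log2 difference was -2.30, so a lower level was common among entries. miR-205 was 119.5-fold lower (log2 -6.90), miR-203 was 21.3-fold lower (log2 -4.42) and miR-200c was 6.81-fold lower (log2 -2.77, interval -3.11 to -2.44). miR-200b at 0.43, miR-200a at -0.17 and miR-141 at -0.96 lay above the median of all entries. Under edgeR's TMM factors the median moved to -0.53, and miR-203 at -2.65 and miR-205 at -5.13 were still 4-fold lower. miR-200c was then short of 4-fold lower, while miR-200a turned to 1.60, miR-141 to 0.81 and miR-200b to 2.20, which is 4-fold higher. In SSCs the pluripotent cell list summed to 0.247% of miRNA reads against 0.004% in preleptotene cells, and 7 of 9 mesenchymal and 3 of 7 other epithelial list members were 4-fold lower in preleptotene cells. The mesenchymal list member miR-10b-5p was 4-fold higher there (5284 and 21896 RPM), as was miR-202-5p (log2 6.64). Their part in these differences was not tested.

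None of the members differed 4-fold between preleptotene and leptotene cells, where 0.472% of 212 entries did. From leptotene to zygotene cells only miR-429 was counted, at 10.1-fold higher (log2 3.33, interval 2.61 to 4.15), beside 11.3% of 239 entries that were higher and a median of 0.71. miR-205 was 5.54-fold higher (log2 2.47, interval 1.75 to 3.26), but its 19 and 97 reads fell short of the read minimum. miR-200a at 1.85, miR-200c at 1.76, miR-200b at 1.67 and miR-203 at 1.06 were above that median on the log2 scale, and miR-141 at -0.37 was below it. The partners of the chromosome 6 cluster thus had opposite signs in this step, which held under each scaling run. miR-202, the miRNA of Sertoli cells in the marker list, also stood at 0.015% of miRNA reads in leptotene cells and 0.339% in zygotene cells, and its part was not tested.

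From zygotene to pachytene cells miR-429 was 4-fold lower (log2 -2.48, -5.54 to -0.61, 2 pachytene reads), beside 13.4% of 247 entries that were lower and 9.31% that were higher. In the same step 4 of 7 mesenchymal list members and miR-202-5p (3354 and 452 RPM) were 4-fold lower, and their part was not tested. miR-200b had a log2 difference of -1.35, miR-200a of -1.28 and miR-203 of -0.29. miR-200c was at 1.68 and miR-141 at 0.76 relative to miRNA reads, but at -2.72 and -3.64 relative to all reads, where the median of all entries was -4.52 and 6 members beside 241 of 247 entries differed 4-fold. The direction of the chromosome 6 pair in this step is therefore set by the scaling. Between pachytene cells and round spermatids, where 18.6% of 129 entries differed 4-fold, no member reached 100 reads in either library and none was counted. Under that minimum, miR-203 was 6.71-fold lower in round spermatids (log2 -2.75, interval -3.51 to -2.05), on 90 and 21 reads.

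The makeup of each cluster is a measure that does not depend on the scaling, since the members of a cluster are counted against each other. miR-200b gave 68.4% of the chromosome 4 cluster in SSCs, 73.5% in preleptotene, 65.1% in leptotene, 57.8% in zygotene and 60.5% in pachytene cells and 71.9% in round spermatids, but 26.8% in sperm. miR-200a gave 28.1% in SSCs, 31.2% in zygotene cells and 66.1% in sperm, and miR-429 gave 7.17% in sperm. In the chromosome 6 cluster, miR-200c gave 61.2% in SSCs, 31.0% in preleptotene, 18.1% in leptotene, 49.1% in zygotene and 64.6% in pachytene cells, 70.3% in round spermatids and 52.0% in sperm. By seed, AAUACUG made up 64.9% of miR-200 family reads in SSCs and 39.8% in sperm, with AACACUG at 60.2% in sperm. The shift toward miR-200a in sperm depended on how reads were matched: when the whole mature sequence had to be present, miR-200a gave 17.6% of the chromosome 4 cluster in sperm.

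**Figure D2:**
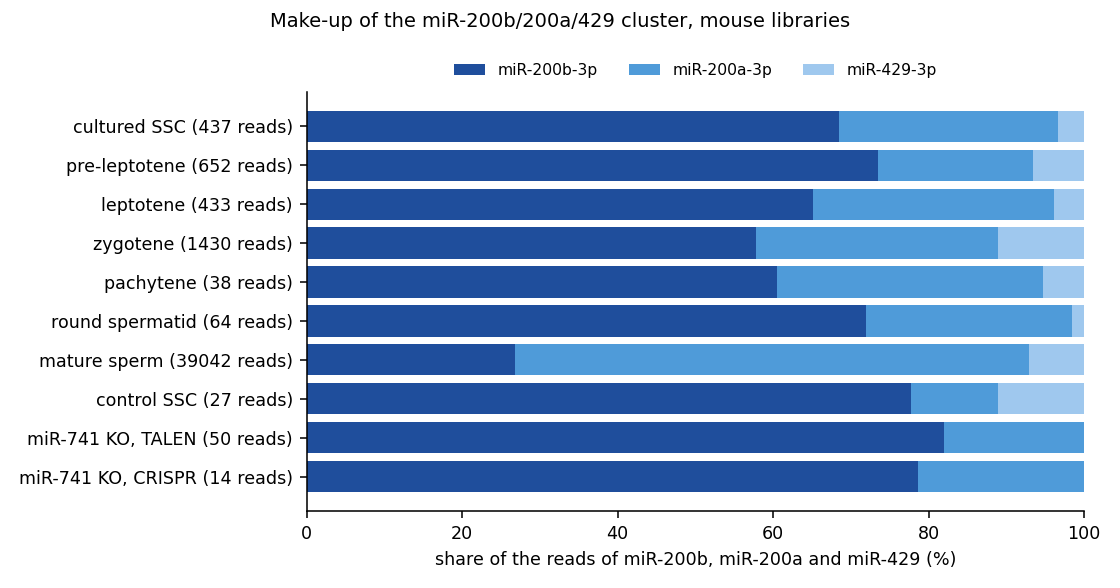
Share of miR-200b, miR-200a and miR-429 among the reads of the chromosome 4 cluster, in percent, as stacked bars for the 10 mouse libraries, with the number of cluster reads beside each name. miR-200b takes the largest share in each library but mature sperm, where it is 26.8% of 39042 reads and miR-200a is 66.1%.

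That dependence goes with the length of the reads. The commonest miR-200a read in SSCs and in sperm are shown because they differ by 2 bases at the 3′ end and only the longer one holds the whole RefSeq sequence.
miR-200a, SSC: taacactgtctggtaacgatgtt
miR-200a, sperm: taacactgtctggtaacgatg
The first was 91 of the 123 miR-200a reads in SSCs (74.0%, Clopper-Pearson interval 65.3 to 81.5), and the other was 23519 of 25788 in sperm (91.2%, 90.8 to 91.5). Reads of 21 nt were 63.1% of miR-200a in preleptotene, 54.5% in leptotene and 64.1% in zygotene cells, so the shorter form also led in spermatocytes. The mean length of miR-200a was 1.59 nt lower in sperm than in SSCs, the sixth largest shortening among 176 entries, whose median was -0.147 nt. miR-141, with the same seed, had 46.3% of reads at 21 nt in SSCs, 64.8% in zygotene cells and 91.4% in sperm. The AAUACUG members differed among themselves. miR-429 was mostly 21 nt, with 53.2% of reads in zygotene cells and 76.9% in sperm. miR-200c had 77.1% of reads at 23 nt in SSCs and 47.2% in sperm, and miR-200b in sperm was spread over 21, 22 and 23 nt with 28.1%, 27.4% and 29.4%. miR-205 was mostly 23 nt in SSCs and sperm alike, at 50.9% and 55.4%.

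**Figure D3:**
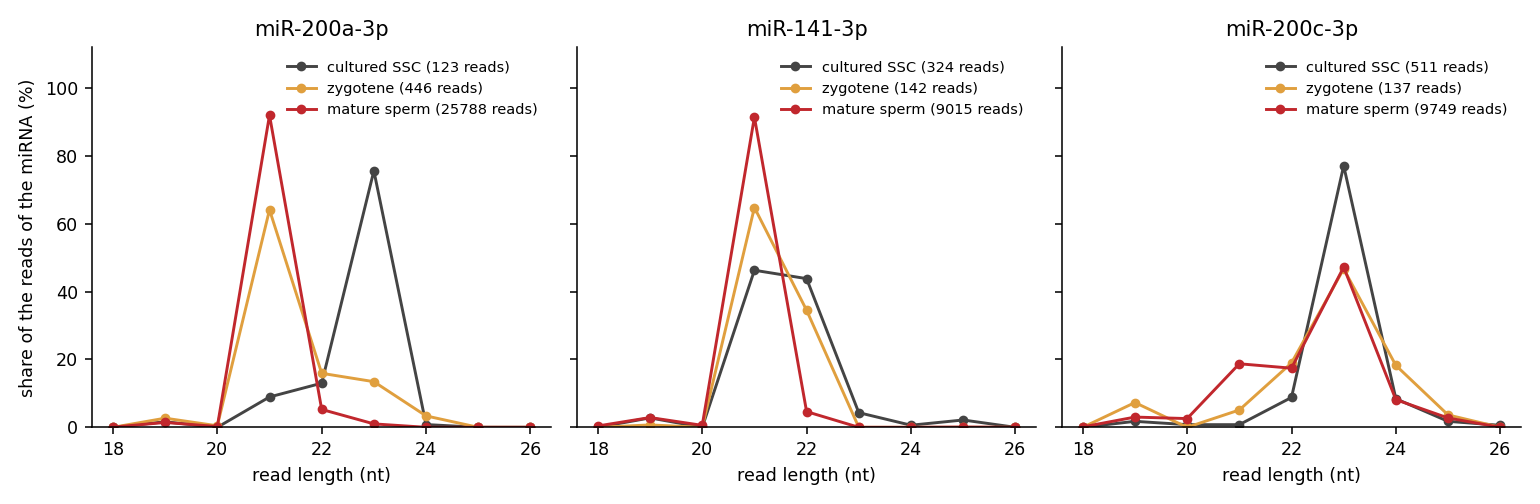
Share of the reads of miR-200a, miR-141 and miR-200c by read length in nt, in percent, for SSCs, zygotene cells and mature sperm, with the number of reads in the key. miR-200a and miR-141 concentrate at 21 nt in sperm (92.0% and 91.4%), whereas miR-200c keeps its largest share at 23 nt.

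Several members carried 3′ ends that did not match the hairpin. For miR-200b they were 36.1% of reads in SSCs, most of them ending in T (33.4% of reads), and 21.6% in sperm. For miR-429 they were 34.2% in zygotene cells and 16.4% in sperm, for miR-205 25.2% in SSCs and 21.4% in sperm, and for miR-203 16.5% and 14.9%. miR-200c had 12.3% and 16.3%, whereas the AACACUG members were low in both libraries, at 2.44% and 1.18% for miR-200a and 4.01% and 2.16% for miR-141. Untemplated 3′ uridines on miRNAs are known as products of terminal uridylyltransferases. The commonest untemplated miR-200b read of SSCs, taatactgcctggtaatgatgacT, with the T in capitals, was 99 of 299 reads (33.1%).

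miR-203 stood apart from the other 6 members at its 5′ end. Beside the RefSeq start, a large part of its reads began 1 base further downstream, which moves the seed by 1 base. The commonest read of each start in SSCs is shown with bases 2 to 8 in capitals.
miR-203, RefSeq start: gTGAAATGtttaggaccact
miR-203, downstream start: tGAAATGTttaggaccactagt
The downstream start made up 40.5% of miR-203 reads in SSCs, 48.5% in zygotene cells and 49.3% in sperm. Over the 19 libraries with at least 100 reads of any start it ranged from 34.3% in pig to 53.3% in the control SSCs. In the other 6 members it was at most 5.6% in any library with at least 100 reads of the member, reached by miR-200a in leptotene cells. A seed starting at this position would pair with other sites, and reads of the downstream start are not part of the miR-203 levels above.

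**Figure D4:**
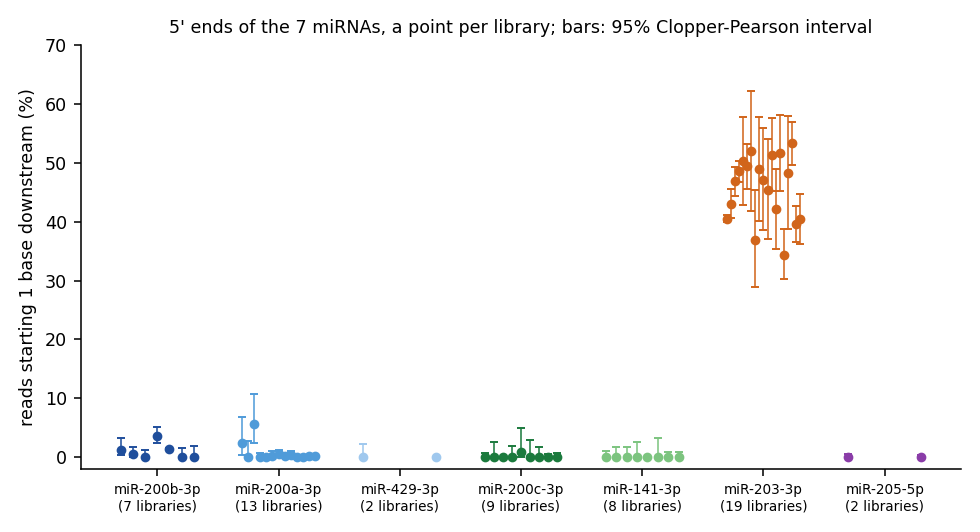
Share of reads that begin 1 base downstream of the RefSeq 5′ end, in percent of the member's reads, with a point for each library that had at least 100 reads of the member and bars for 95% Clopper-Pearson intervals. The points of miR-203 lie between 34.3% and 53.3%, and those of the other 6 members at or below 5.6%.

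In the SSC experiment miR-203 was the only member with enough reads to be counted. It stood at 730 (655 to 812) RPM in the control SSCs, 2274 (2094 to 2467) in the TALEN line and 1571 (1400 to 1756) in the CRISPR line. The 3 intervals did not overlap, and miR-203 was 3.11-fold and 2.15-fold higher in the knockout lines (log2 1.64 and 1.10), past the 2-fold size in both. Of all 150 entries compared, 18.7% passed, 9.33% being 2-fold higher in both lines and 9.33% lower, and both lines share 1 control. The CRISPR difference was just under 2-fold with TMM factors (log2 0.93) or DESeq2 size factors (0.97), with reads of shifted 5′ ends counted (0.82) and with the whole mature sequence required (0.88), and each of these ends the count. The downstream start of miR-203 was 53.3% of its reads in the control (49.6 to 56.9), 39.6% in the TALEN line (36.5 to 42.7) and 40.4% in the CRISPR line (36.3 to 44.7), beside 40.5% in the other wild-type culture. The wild-type C57BL/6 SSC culture had 2882 RPM, above both knockout lines, and the log2 difference between the 2 wild-type cultures was -1.98 (-2.14 to -1.83), wider than that between control and knockout. None of the members differed 4-fold between the wild-type cultures, where 4.38% of 320 entries did, all lower in the control SSCs. The mesenchymal list, which feeder fibroblasts would add to, summed to 7.26% of miRNA reads in the control and 4.75% and 6.21% in the TALEN and CRISPR lines, and its part was not tested.

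The other members rested on few reads in these shallow libraries. miR-205 stood at 120 RPM in the control SSCs, 39.0 in the TALEN line (10 reads) and 173 in the CRISPR line. The lines lay on opposite sides of the control, but the CRISPR interval (log2 0.53, -0.13 to 1.17) included equal levels. miR-200c stood at 147, 297 and 168 RPM, miR-141 at 107, 160 and 147, and miR-200b at 44.8, 160 and 55.9 in control, TALEN and CRISPR. miR-200a stood at 6.41, 35.1 and 15.2 RPM, and miR-429 had 3 reads in the control and 0 in either line. None of these reached the read minimum, and the intervals of miR-200a, miR-200b, miR-200c and miR-141 overlapped between the control and the CRISPR line. From the control to the TALEN line, log2 differences were 1.83 for miR-200b (interval 1.04 to 2.67) and 2.45 for miR-200a (0.45 to 4.98). They were 1.01 for miR-200c (lower limit 0.52) and -1.62 for miR-205 (-2.75 to -0.63). These TALEN intervals did not include equal levels, whereas that of miR-141 (log2 0.58, -0.049 to 1.21) did.

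In rabbit testis, all 5 members with enough reads rose with age from day 10 to day 180, a span that covers puberty. The read minimum had to be reached at 1 age only. miR-200b reached it only at days 110 and 180, with 229 and 194 reads. miR-141 and miR-203 reached it only from day 90 on, with 110 and 124 reads at that age. These members were thus tested because of their late ages, so the count of 5 is partly set by the minimum. miR-200a had 170, 191, 239, 268, 409, 306, 3781 and 6140 RPM at the 8 ages in order. Its level was thus within 170 to 409 up to day 90 and far higher at days 110 and 180. Spearman's rho with age was 0.976 (exact permutation p = 0.000397, Benjamini-Hochberg adjusted p = 0.00743), and the level at day 180 was 36.1-fold that at day 10. Of all 206 entries tested over the ages, 33% passed at an adjusted p under 0.05, 16% rising and 17% falling.

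miR-200b had 10.19, 12.9, 18.8, 20.5, 22.6, 14.9, 171 and 288 RPM (rho 0.857, exact permutation p = 0.0107, adjusted p = 0.0368). miR-200c had 13.2, 23.4, 45.4, 30.1, 34.8, 70.1, 527 and 1017 RPM (rho 0.929, exact permutation with adjusted p = 0.0153). miR-141 had 11.2, 8.27, 15.3, 20.2, 15.4, 39.1, 299 and 568 RPM (rho 0.952, exact permutation with adjusted p = 0.0124). All 3 shared the course of miR-200a, with each of the last 2 ages above every earlier one. miR-203 had 11.2, 20.4, 15.5, 19.9, 21.2, 44.1, 89.4 and 162 RPM (rho 0.929, exact permutation with adjusted p = 0.0153), a smaller and more even rise of 14.5-fold, against 28.2-fold for miR-200b, 77.2-fold for miR-200c and 50.8-fold for miR-141. miR-205 stayed at or under 7.45 RPM at every age, was 0 at day 180 (limit 4.45 RPM) and was too rare to test.

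**Figure D5:**
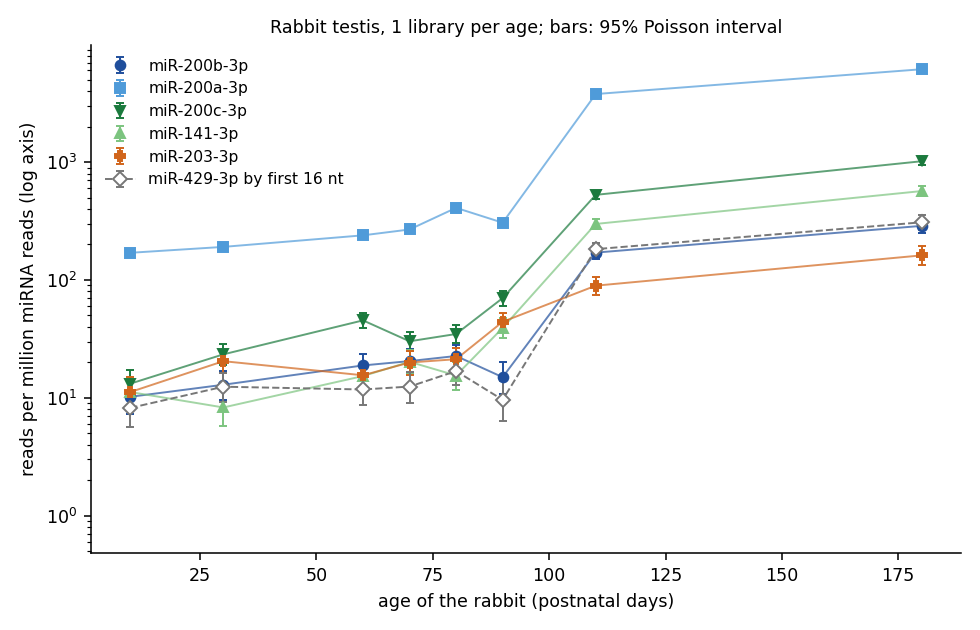
Level of 6 members in rabbit testis against age in days, in RPM on a log axis, with bars for 95% Poisson intervals (1 library per age). miR-429, drawn dashed, is counted by its first 16 bases. The miR-200 members step up between days 90 and 110, and miR-200a is the highest at every age.

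Pearson's r of the log2 level with age was 0.889 for miR-200a (exact permutation p = 0.000124, adjusted p = 0.00232), and 0.884 for miR-200b, 0.903 for miR-141, 0.922 for miR-200c and 0.924 for miR-203, all with adjusted p at or below 0.00724 by the same exact permutation. Without days 10 and 180, the ages farthest from the median, r was 0.724 for miR-200b, 0.786 for miR-200a, 0.805 for miR-200c, 0.863 for miR-141 and 0.784 for miR-203, and rho was 0.657, 0.943, 0.829, 0.943 and 0.829 in the same order. None passed after adjustment with these 6 ages, where the smallest exact permutation p is 0.00278, while 2 of the 5 had an unadjusted p under 0.05.

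The main step lay between days 90 and 110, where the log2 difference was 3.63 for miR-200a, 3.51 for miR-200b, 2.91 for miR-200c, 2.93 for miR-141 and 1.02 for miR-203. The median of 171 entries over this step was 0.07. In the 2 oldest libraries miRNAs were 10.16% (day 110) and 7.02% (day 180) of reads against 35.6% at day 90. Without day 110 or without day 180, 1 of the 5 members passed the adjusted threshold, without day 10 it was 2 and without day 30 it was 3. With days 110 and 180 both left out, rho was 0.943 for miR-200a, 0.886 for miR-141, 0.829 for miR-200c and miR-203 and 0.657 for miR-200b, and none passed after adjustment, with 2 at an unadjusted p under 0.05. Relative to all reads, 3 of the 5 rose, and miR-200b at 0.619 (exact permutation with adjusted p = 0.151) and miR-203 at 0.524 (adjusted p = 0.243) did not pass. edgeR's quasi-likelihood test with age as a covariate and TMM factors, added after the data were seen, gave adjusted p of 0.00303 to 0.0039 for the 5 members and called 93 of 206 entries.

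Marker lists were set beside the rabbit result, and their part in it was not tested. All 3 tested late germ cell markers rose, from 0.895% of miRNA reads in sum at day 10 to 5.54% at day 180, among them miR-449a-5p, a miRNA of meiotic and later germ cells, from 21.6 to 9595 RPM. None of the 6 tested miRNAs of the other epithelial list passed by Spearman's rho, and the list summed to 0.069% at day 10 and 0.091% at day 180. That sum hides opposite courses: rho was 0.786 for miR-194-5p and 0.690 for miR-192-5p, but -0.810 for miR-96-5p. By Pearson's r of the log2 level, miR-194-5p passed (r 0.833, exact permutation with adjusted p = 0.0381), and the other tested members of this list did not. None of 3 blood markers, 2 muscle or endothelial markers and 1 Sertoli cell marker passed. Between days 90 and 110, however, blood markers were also at higher levels: miR-144-3p stood at 31.7, 153 and 267 RPM at days 90, 110 and 180, miR-451a at 148, 384 and 526, and miR-142a-5p at 18.5, 57.4 and 57.8. The endothelial miRNA miR-126a-3p stood at 3169, 4568 and 6559 RPM at these ages. Of 9 mesenchymal markers 1 rose and 3 fell, and the 1 pluripotent cell marker tested rose. The median rho over all entries was 0.01.

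Rabbit reads also showed where mouse sequences end as a guide to other species. miR-429 was all but absent by the mouse 18 base match, with 0 or 1 read at each age. By its first 16 bases, however, it had 8.20, 12.4, 11.8, 12.4, 16.8, 9.61, 183 and 308 RPM, a course like that of its cluster (rho 0.738, exact permutation p = 0.0458, adjusted p = 0.102, which does not pass). The commonest such read is shown with bases 17 and 18 in capitals, the 2 that keep it out of the 18 base match.
miR-429, rabbit: taatactgtctggtaaCCcgt
Within its first 18 bases it differs from the mouse sequence by T17C and G18C, and the bases after these were not compared. It made up 555 of 720 reads (77.1%). The commonest rabbit miR-200a read, taacactgtctggtaacgatgCt, differs from the mouse hairpin by T22C and was 70.9% to 80.5% of miR-200a reads over the ages. miR-200a gave 92.7% to 95.7% of the chromosome 4 cluster at every rabbit age by the 18 base match, and miR-200c gave 54.1% to 74.8% of the chromosome 6 pair.

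Adult pig and rat testis had lower values of miR-200a, miR-200b, miR-200c and miR-141 than rabbit testis at day 180, as matched to mouse sequences. In rabbit at day 180 the order was miR-200a, miR-200c, miR-141, miR-200b and miR-203. In pig, miR-203 led with 269.5 RPM, followed by miR-200b at 64.7, miR-141 at 44.8, miR-200a at 39.0 and miR-205 at 4.15. miR-200c and miR-429 were not matched in pig, where the limit for 0 reads, set at 3 reads, was 2.49 RPM. In rat, miR-203 led with 216 RPM, miR-200c and miR-141 followed with 112.1 each, miR-200a had 32.0 RPM, miR-205 had 4 reads, and miR-200b and miR-429 had 1 read each. Neighbours in these orders rest on 1 library a species, and bases that differ from mouse within the first 18 would lower a level in any of them.

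Other miRNAs whose log2 levels followed the members most closely were found by Pearson's r over the 7 mouse stages among 354 candidates. The libraries and the denominator are shared by all points, so r is a description. For the chromosome 4 cluster these were miR-10b-3p (0.959), let-7b-5p (0.870) and miR-451a (0.869). For the chromosome 6 cluster they were let-7f-5p (0.907), let-7d-3p (0.901) and let-7d-5p (0.900). miR-203 was followed by miR-26b-3p (0.980) and miR-146b-5p (0.977), and miR-205 by miR-652-3p (0.974) and miR-28a-3p (0.966). Over the 8 rabbit ages, the nearest of 201 candidates were miR-34b-3p (0.989) for the chromosome 4 cluster, miR-425-5p (0.992) for the chromosome 6 cluster and miR-449a-5p (0.966) for miR-203.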

How the data were processed

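For every library the authors deposited each distinct sequence and its raw read count, from total RNA and an Illumina small RNA protocol per the labels. Bowtie and the builds Rnor_6.0, GRCm38 and OryCun2.0 are named in the submitters' processing notes, and the trimming of adapters is not given in the sources used here. Only reads of 18 to 26 nt counted for a RefSeq mature mouse miRNA when the first 18 bases matched, in all species, and levels are per 1000000 such reads. miRNAs with the same 18 bases were joined. Log2 differences carry exact conditional binomial intervals of 95%, with 0 replaced by 3 reads. Entries needed 100 reads in 1 library, and 4-fold, or 2-fold in both knockout lines, was counted. Rabbit trends used Spearman's rho over all 40320 orders of ages, two-sided, with Benjamini-Hochberg adjustment over 206 entries. Groups come from the sample titles. Named were the 7 members, their other arms, the 3 most alike miRNAs, of which some are printed, and 46 markers in 7 lists, 36 of them measured. Members and lists were chosen with earlier results of these data known. R 4.3.3, edgeR 4.0.16, DESeq2 1.42.0, Python 3.11.15, pandas 2.3.3, numpy 2.4.6, scipy 1.17.1 and matplotlib 3.10.9 were used, and scripts were tested on simulated data. Alternatives were other scalings, matching rules, read minimums, left-out ages and edgeR's test.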

Additional observations from a re-analysis of the deposited data

Results flagged for a closer look

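At day 180 the rabbit library held 208 reads that begin with the first 16 bases of mouse miR-429 and carry other bases at positions 17 and 18. These reads are outside the main counts, in which miR-429 had 0 reads in that library, and they lie above the limit that a count of 0 allows.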

How the results depend on the processing

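No paired analysis was possible because each group was 1 library and the labels give no replicate numbers that groups share. The number of members counted was 6 or 7 between round spermatids and sperm and 2 or 3 between SSCs and preleptotene cells under every alternative, apart from direction under TMM and DESeq2 factors, where 1 was higher and 2 were lower in the latter. From leptotene to zygotene it was 1, and 0 with the whole mature sequence required, 2 with no read minimum and 0 with a minimum of 1000 reads. From zygotene to pachytene it was 1, and 6 per all reads (241 of 247 entries), 0 with the whole sequence and 0 with 1000 reads. From pachytene to round spermatids it was 0, and 1 with shifted 5′ ends and 1 with no minimum. Between wild-type SSC cultures it was 0, and 1 with reads of 20 to 24 nt and 1 with hairpin reads in the denominator. In the knockouts it was 1, and 0 with TMM, DESeq2, the whole sequence, shifted 5′ ends or 1000 reads, and 2 with no minimum. In rabbit it was 5, and 3 per all reads, 2 with the whole sequence, 1 with 1000 reads, 1 to 5 with 1 age left out, and 0 without days 10 and 180 or without days 110 and 180. No value counted under the main settings reversed its sign. From zygotene to pachytene cells, miR-200c and miR-141 were higher but not counted under the main settings, and were 4-fold lower per all reads. The whole-sequence rule leaves out the commonest rabbit miR-200a read (T22C) and that of miR-200b at days 110 and 180 (A22G). Both differ from mouse within the 22 bases of the mouse sequence. Except where fewer entries or ages were tested, the cause of a changed count was not tested. Pachytene cells and round spermatids, with the fewest miRNA reads of the mouse stages, limit the folds that rest on them.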

Other observations

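The other arm of each hairpin, usually degraded after processing, was rare. It made up at most 2.1% of the reads of a hairpin with 100 or more reads, except miR-200a-5p in SSCs, which was 12.8% of the reads of its hairpin (18 reads) against 0.32% in sperm. miR-200b-5p was 2.08% in sperm, at 62.4 RPM.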
